A study of Mus musculus with 14 samples.

Results

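Liver RNA of 4 control mice was set against a universal mouse reference RNA on the same arrays. These are the 4 of the 14 arrays of the series whose titles name the control group, and they were chosen by title alone. Each array held liver RNA of 1 mouse labelled with Cy5 and the reference labelled with Cy3, so every array gave its own ratio of liver over reference for each probe. The mice were female B6C3F1, a hybrid laboratory strain. The labels give an age of 5 to 6 weeks, which the growth protocol gives as the age at purchase, so they were older when killed. They were gavaged with corn oil for 21 days, were given bromodeoxyuridine (BrdU) in drinking water for the last 5 days, and were killed 4 h after the final dose. BrdU stands in for thymidine when DNA is copied, and all mice of the series drank it, so these livers received no furan but were not untreated. The other 10 mice of the series received furan at 1 mg/kg or 8 mg/kg, 5 mice at each dose, and are used here only beside the controls: in the comparison of slides, for the levels of Alb, Mki67 and some gene lists, and in alternative fits over all 14 arrays. RNA came from pieces of whole frozen liver, so a lower value can come from fewer cells of a type or from less RNA per cell, and these cannot be told apart. The dyes were not swapped: a probe that is brighter in Cy5 than in Cy3 for equal RNA cannot be told apart from a probe whose RNA is more abundant in liver. The sources used here do not give which cells or tissues make up the reference RNA.

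Hepatocytes make up most of the liver's mass. They secrete most proteins of the blood plasma, turn ammonia into urea, make bile acids, store and release glucose, oxidise fatty acids, and detoxify foreign compounds with cytochrome P450 and conjugating enzymes. Liver also holds Kupffer cells, which are its resident macrophages, sinusoidal endothelial cells, vitamin A storing stellate cells and the cholangiocytes of the bile ducts. Most hepatocytes of an adult animal are not dividing.

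Values are log2 ratios of liver over reference, positive where liver was higher. A feature is a named gene, or a probe target without a symbol, that stood well above background in either channel (liver or reference) on 3 or more of the 4 arrays, and 25621 features passed. A feature was called enriched or depleted where limma's test of the mean ratio against 0 gave a Benjamini-Hochberg adjusted p below 0.05 and the mean differed by at least 2-fold. In all, 3653 features were enriched in liver (14.3%) and 4384 were depleted (17.1%). All 8037 features with a mean difference of 2-fold or more also passed the test, so the fold decided the calls, and 8033 of them had the same sign on 4 of 4 arrays. When the mean was tested against 2-fold in place of 0 (limma's treat), 2921 features were enriched and 3359 depleted. The p-values rest on the spread of the ratio over 4 arrays, which holds mouse, slide and the noise of both channels together. They refer to a single reference RNA and say nothing of how another reference would differ. The 2 directions were not alike in size: 473 features were enriched at least 32-fold and 30 were depleted as much, whereas 1832 were enriched and 1460 depleted at least 4-fold. The split between enriched and depleted depends on the scaling. Enriched features were 45.5% of the calls after loess, 22.7% after median centring of each array and 15.4% on the scale of the spike-in RNAs, and the median of all features moved from -0.07 to -0.38 and -0.89. Counts and list medians below are to be read against those of all features, whose median was -0.07. A feature that passed the filter by 1 channel alone could hardly be called in the other direction. Counts of lists that hold such features lean towards the brighter channel.

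Between 23925 and 27259 of 55681 probes stood well above background for liver on a control array, and between 32429 and 38120 for the reference. No spot was saturated. The liver markers Alb, Apoa1 and Cyp2e1 were all enriched. Alb, which encodes serum albumin, was at 5.84, 5.65, 7.49 and 6.28 in mice 1 to 4. Its mean was 6.31 ± 0.26 (limma's moderated SE, n = 4, adjusted p = 8.82e-08). Each ± in the text is this moderated SE, which draws on the spread of all features. It is not the SE of the 4 values alone: it can be smaller where 1 mouse stands apart and larger where the mice agree. Apoa1, the main protein of high-density lipoprotein, was at 6.41, 6.33, 8.00 and 6.87 (mean 6.90 ± 0.24). Cyp2e1, the cytochrome P450 that oxidises ethanol and other small molecules, was at 5.96, 6.32, 7.81 and 6.24 (mean 6.58 ± 0.26), and its other probe at 8.06. All 4 mice were far above 0 for each marker, and mouse 3 was the highest for all 3.

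The 15 most enriched genes that were detected in both channels on 4 arrays lay between 9.16 and 10.93. Akr1c6, an aldo-keto reductase that acts on steroids, led with 10.50, 10.83, 11.82 and 10.56 (mean 10.93 ± 0.20, adjusted p = 3.4e-09). Rgn encodes regucalcin, an enzyme of vitamin C synthesis, and was at 9.95, 10.39, 11.23 and 10.30 (mean 10.47 ± 0.18). Fabp1, the fatty acid binding protein of liver, was at 9.86, 9.98, 11.34 and 10.14 (mean 10.33 ± 0.22), and Slc27a2, which activates and takes up very long-chain fatty acids, at 9.83, 10.26, 10.82 and 9.42 (mean 10.08 ± 0.20). The next were Ambp (9.96), Serpinc1 (9.78), Aadac (9.71), Pzp (9.68), Serpina3k (9.63) and the major urinary protein gene Mup5 (9.63). The last 5 of the 15 were Apoh (9.59), Fgg (9.58), Slco1b2 (9.54), Cyp2c54 (9.23) and Wfdc21 (9.16). In all 15, mouse 3 had the highest ratio.

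**Figure D1:**
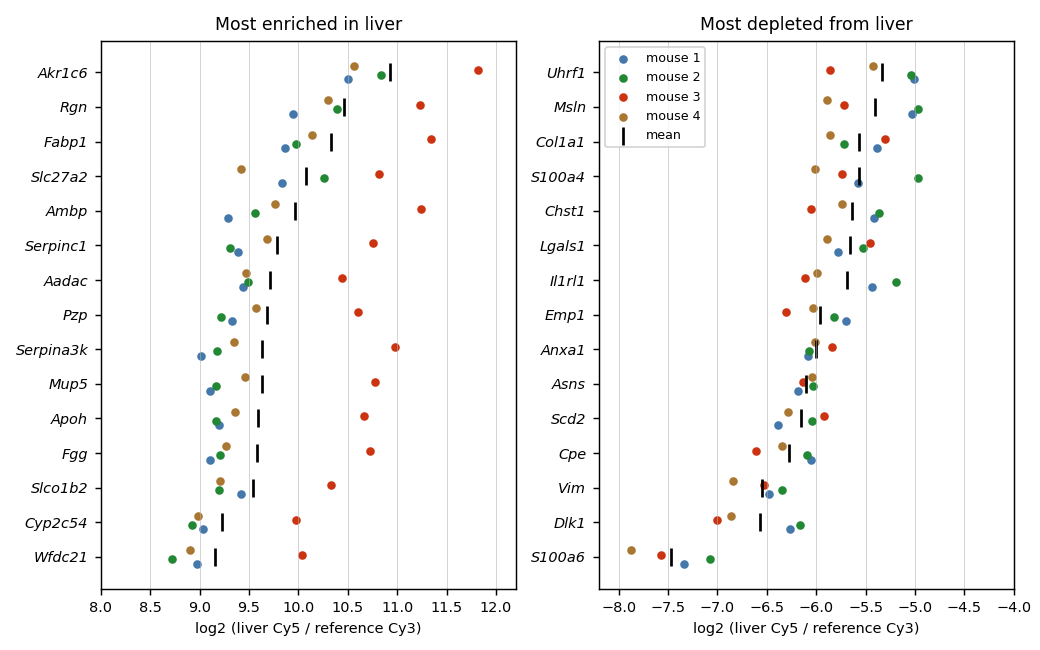
Log2 ratio of liver (Cy5) over reference (Cy3) for the 15 most enriched genes (left) and the 15 most depleted genes (right) detected in both channels on 4 arrays. Each point is 1 control mouse and each black bar the mean of 4. Mouse 3 lies to the right of the other mice for the enriched genes, from Akr1c6 at 10.93 to Wfdc21 at 9.16, while the depleted genes run from S100a6 at -7.47 to Uhrf1 at -5.33 with no mouse apart in all of them.

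Plasma proteins were the gene group with the highest ratios. Of 33 measured carrier proteins and apolipoproteins, 33 were enriched, with a median of 7.14 and a range of 4.23 to 9.96. Ambp, the precursor of alpha-1-microglobulin and bikunin, was at 9.29, 9.56, 11.24 and 9.77 (mean 9.96 ± 0.28). Pzp, a broad protease inhibitor of the alpha-2-macroglobulin family, was at 9.32, 9.21, 10.60 and 9.57 (mean 9.68 ± 0.20). Ttr, the carrier of thyroid hormone and retinol-binding protein, was at 6.59, 6.18, 8.15 and 7.08 (mean 7.00 ± 0.27). The lowest of the list was Apoa2, an apolipoprotein of high-density lipoprotein, at 4.23. Among coagulation factors, complement components and their inhibitors, 39 of 40 were enriched, with a median of 6.55. Serpinc1 encodes antithrombin and was at 9.39, 9.31, 10.75 and 9.68 (mean 9.78 ± 0.21). The fibrinogen chain gene Fgg was at 9.58 and Fgb at 7.61, prothrombin (F2) at 6.94, complement C3 at 5.97, and C4bp, an inhibitor of complement, at 8.78. F10, coagulation factor X, was the member not called, at 0.13 ± 0.12 with an adjusted p of 0.334, while its other probe was at 6.02.

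The promoters of some liver genes hold letters of known motifs. TATAAA is the core of the TATA box, at which the transcription machinery assembles, and CAAAGTCCA is a form of the motif bound by hepatocyte nuclear factor 4 (HNF4), a receptor that drives many hepatocyte genes. The 150 bases before the RefSeq start of Cyp2e1 (GRCm38.p6 chr7:140763669-140763818, plus strand), Fabp1 (chr6:71199729-71199878, plus strand), Cyp3a11 (chr5:145879855-145880004, minus strand) and Cyp3a16 (chr5:145469724-145469873, minus strand) are given 5′ to 3′ in the direction of the gene, with the matching letters of either strand in capitals. They were picked after their values were seen, because they hold a match.
Cyp2e1: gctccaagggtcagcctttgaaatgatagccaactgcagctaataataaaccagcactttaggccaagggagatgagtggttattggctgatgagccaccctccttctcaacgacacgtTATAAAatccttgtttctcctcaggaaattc
Fabp1: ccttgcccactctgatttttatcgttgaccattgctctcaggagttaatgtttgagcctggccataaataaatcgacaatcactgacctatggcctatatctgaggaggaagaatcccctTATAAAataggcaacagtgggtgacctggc
Cyp3a11: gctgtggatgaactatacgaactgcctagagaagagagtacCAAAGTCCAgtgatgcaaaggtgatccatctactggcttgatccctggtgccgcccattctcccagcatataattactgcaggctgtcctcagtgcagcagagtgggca
Cyp3a16: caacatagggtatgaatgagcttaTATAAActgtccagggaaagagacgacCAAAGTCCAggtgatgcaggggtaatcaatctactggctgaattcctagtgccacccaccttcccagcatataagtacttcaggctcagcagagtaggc
The TATAAA of Cyp2e1 begins 31 bases before the start and that of Fabp1 30 bases before it. The HNF4 letters begin 109 bases before the start of Cyp3a11 and 99 before that of Cyp3a16, a pair of paralogs, and Cyp3a16 also holds TATAAA at 126 bases.

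Enzymes that act on foreign compounds were enriched as a group. Of 33 measured cytochrome P450 genes, 31 were enriched and 1 was depleted, with a median of 6.56. The highest were Cyp2c54 (9.23), Cyp3a25 (9.13), Cyp2c29 (8.71) and Cyp3a16 (8.55). Cyp1a2, which oxidises caffeine, was at 4.71, 4.40, 5.65 and 4.85 (mean 4.90 ± 0.18), and Cyp3a11, a major drug-oxidising P450, at 6.65, 6.43, 7.69 and 6.92 (mean 6.92 ± 0.18). Cyp1b1, a P450 known mostly from tissues outside the liver, was the depleted member at -2.97, with liver signal above background on 2 of 4 arrays. The ratios of close paralogs such as the Cyp2c, Cyp3a, Ugt2b, Sult2a and Mup genes are uncertain, since probes of 1 member can bind transcripts of another. Among conjugating enzymes, 34 of 36 were enriched, with a median of 4.71. The glucuronosyltransferase gene Ugt2b5 was at 8.91 (reference above background on 2 of 4 arrays), the sulfotransferase gene Sult1a1 at 6.07 and the glutathione transferase gene Gstz1 at 4.89. Gsta1 was not called; its 4 values were 0.47, -0.34, 0.79 and 0.86, and mouse 2 was below 0 where the others were above.

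Amino acid breakdown and the urea cycle gave 48 of 48 measured genes enriched, with a median of 5.71 and a lowest member of 1.28. Cps1, which starts the urea cycle, was at 7.08, 6.73, 8.39 and 7.30 (mean 7.38 ± 0.23), Arg1, which ends it, at 7.62, and Tdo2, which opens the ring of tryptophan, at 7.12. Of 31 bile acid genes, 30 were enriched, with a median of 5.40. Slco1b2, an uptake transporter of organic anions, was at 9.54, Abcg5, a sterol exporter, at 7.42, and Abcb11, the bile salt export pump, at 5.01. The member not called was Slc10a1, the sodium-dependent bile acid uptake transporter. Its probe in use was at 0.38, 0.58, 0.75 and 0.18 (mean 0.47 ± 0.10), and its other probe at 6.58.

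Fatty acid oxidation and ketone body synthesis had 34 of 38 genes enriched and 2 depleted, with a median of 3.37. Cpt1a, which admits fatty acids to mitochondria, was at 3.32, 3.08, 3.28 and 3.31 (mean 3.25 ± 0.07). Oxct1, the enzyme by which other tissues use ketone bodies, was depleted at -4.80, -4.44, -4.70 and -4.67 (mean -4.65 ± 0.08). Sugar metabolism split within the list: 18 of 35 genes were enriched and 13 depleted, with a median of 1.01. The gluconeogenic genes Pck1 (9.00), Fbp1 (8.44) and G6pc (6.09) were all enriched.

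In some pairs of isoforms of 1 step, chosen after their values were seen, the liver form was enriched and the other depleted. The liver glucose transporter gene Slc2a2 was at 7.76, 7.74, 8.47 and 7.48, with reference signal above background on 1 of 4 arrays, and Slc2a1, the transporter of many other cells, at -4.20, -4.24, -3.95 and -4.58. All 4 mice were above 0 for the liver form and below 0 for the other. Likewise the glycogen synthase gene Gys2 was at 7.66 and Gys1 at -2.36, and of the pyruvate kinase genes Pklr was at 3.88 (reference above background on 3 of 4 arrays) and Pkm at -4.04. Glycogen phosphorylase of liver (Pygl) was at 6.61 and that of brain (Pygb) at -1.50, while that of muscle (Pygm) was at 0.88 and not called. The phosphofructokinase genes did not part: that of liver (Pfkl) was depleted at -2.18, as were those of muscle (Pfkm, -1.23) and platelets (Pfkp, -3.77). Of the stearoyl-CoA desaturase genes, 1 was enriched and 1 depleted, with Scd1 at 5.06, 5.39, 6.42 and 5.74 and Scd2, among the 15 most depleted genes, at -6.38, -6.04, -5.92 and -6.29.

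Transcription factors of hepatocytes were enriched in 24 of 30 cases, with a median of 3.58. Ppara, the lipid-sensing nuclear receptor, was highest at 6.42, 6.36, 7.22 and 6.60 (mean 6.65 ± 0.14). Nr1i3, the receptor CAR that induces detoxifying enzymes, was at 6.13, and Nr1h4, the bile acid receptor, at 5.70. Nr5a2, a nuclear receptor of cholesterol metabolism, was at 5.81 and ranged from 3.70 to 7.25 over the 18 alternatives of processing. Hnf4a was at 4.80, 4.41, 5.79 and 4.89 (mean 4.97 ± 0.19); it is a master regulator of the hepatocyte programme. Nr0b2, a repressor in bile acid feedback, varied widely between mice at 2.29, 3.51, 4.90 and 3.13.

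**Figure D2:**
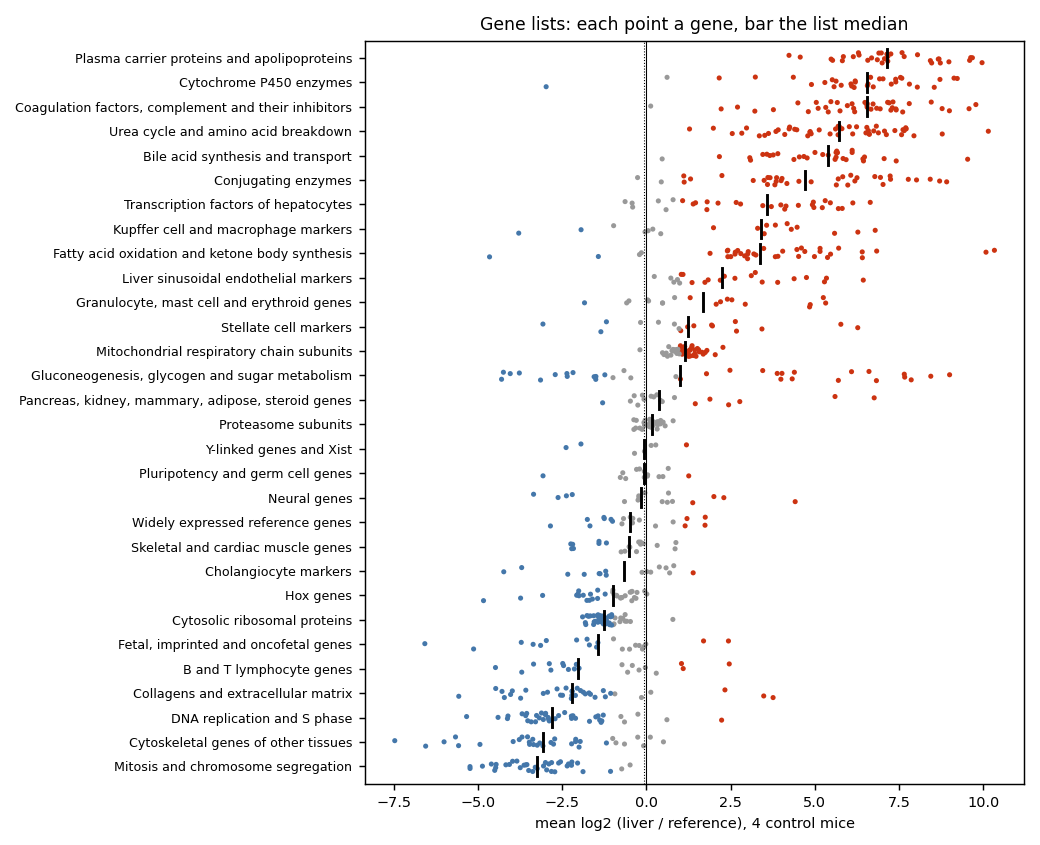
Mean log2 ratio of liver over reference in 4 control mice (horizontal axis) for each measured gene of 30 gene lists (rows). Red points are enriched genes, blue points depleted genes and grey points genes not called, and each black bar is the list median. Plasma carriers stand at the top with a median of 7.14 and mitosis genes at the bottom with -3.24, while the proteasome lies at 0.17, a median that fell below 0 after median centring, with no normalization, in the authors' ratios and on the spike-in scale.

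Markers of other liver cells were measured in the same RNA. Of 18 Kupffer cell and macrophage genes, 11 were enriched and 2 depleted, with a median of 3.40. Clec4f, a lectin of Kupffer cells, was at 6.19, 6.02, 7.07 and 5.84 (mean 6.28 ± 0.18), Cd5l, a protein that macrophages secrete, at 6.79, and Vsig4, a complement receptor, at 5.59. Adgre1 (0.06) and Csf1r (0.19), genes shared with other macrophages, were not called, and Cd14, the endotoxin coreceptor, was depleted at -3.79. Sinusoidal endothelial markers were enriched in 17 of 22 cases (median 2.26), among them the scavenger receptor gene Stab2 at 5.26, 4.88, 5.72 and 5.29 (mean 5.29 ± 0.12) and Clec4g at 6.44. The general endothelial marker Pecam1 was at 0.24 and was not called.

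Stellate cell genes were enriched in 10 of 17 cases and depleted in 3, with a median of 1.23. Lrat, which makes the retinyl esters that these cells store, was above background in liver and not well above background in the reference on all 4 arrays, which gives at least 6.03-fold. Vipr1 was at 6.27 by the probe in use and at 0.92 by its other probe. The further stellate markers did not share a call: Reln was enriched at 1.41, with no reference signal well above background, and Ecm1 was at 0.36 and not called. Acta2, the smooth muscle actin of activated stellate cells, was depleted at -2.98, -2.92, -3.03 and -3.35 (mean -3.07 ± 0.09). Cholangiocyte markers were depleted in 8 of 16 cases and enriched in 1, with Krt19 at -4.13, -4.24, -4.13 and -4.43 (mean -4.23 ± 0.08) and Epcam at -2.33 (liver above background on 2 of 4 arrays). Their list median of -0.66 turned to 0.49 over the members detected in both channels. Clec4f, Stab2 and Lrat were thus higher in liver than in the reference on 4 of 4 arrays, and the duct marker Krt19 was lower on 4 of 4.

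Blood cell genes differed within and between lineages. The globin genes Hba-a1 (5.32) and Hbb-bt (5.25) and the erythroid heme synthesis gene Alas2 (4.85) were enriched, in livers of mice that had been exsanguinated per the labels. Within the list of granulocyte, mast cell and erythroid genes, 10 of 18 were enriched and 1 was depleted. The granulocyte genes among them did not share a direction. S100a9 was enriched at 2.20, with no reference signal well above background on any array, and S100a8, its partner in calprotectin, was depleted at -1.83. The granule genes Elane (0.84), Ctsg (0.48), Prtn3 (0.07), Camp (0.04) and Mpo (-0.52) were not called. Of 20 B and T lymphocyte genes, 11 were depleted and 3 enriched, with a median of -2.04, which was -0.72 over the 17 members detected in both channels. Mzb1, a gene of antibody-secreting B cells, was at -4.48, the B cell receptor component Cd79b at -3.70, and the T cell kinase gene Lck at -2.88. The enriched members were Cd4 (2.46) and the cytotoxic cell genes Nkg7 (1.10) and Gzma (1.04). How much red cell RNA bears on the other ratios was not tested.

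The most depleted gene was S100a6, a calcium-binding protein of proliferating and mesenchymal cells, at -7.34, -7.08, -7.57 and -7.87 (mean -7.47 ± 0.12, adjusted p = 3.04e-09). Dlk1, an imprinted Notch-family protein of fetal liver and precursor cells, followed at -6.27, -6.16, -7.00 and -6.86 (mean -6.57 ± 0.14); its other probe was at -2.72. Vim, the intermediate filament of mesenchymal cells, was at -6.48, -6.35, -6.53 and -6.84 (mean -6.55 ± 0.09). Asns, which makes asparagine, was at -6.18, -6.04, -6.14 and -6.05 (mean -6.10 ± 0.07), and the 4 mice lay close together. The other 11 of the 15 were Cpe (-6.28), Scd2 (-6.16), Anxa1 (-6.00), Emp1 (-5.96), Il1rl1 (-5.69), Lgals1 (-5.66), Chst1 (-5.64), S100a4 (-5.57), Col1a1 (-5.57), Msln (-5.40) and Uhrf1 (-5.33). Some of these genes are also members of the next lists, which were written with earlier results of these data known. The list counts thus do not stand apart from them. The list of cytoskeletal genes of other tissues also holds genes of other kinds, such as S100a6, Anxa1 and Lgals1. Of its members, 26 of 33 were depleted (median -3.07), and 22 of the 27 detected in both channels on 4 arrays. The hepatocyte keratin genes Krt8 (-0.08) and Krt18 (-0.25) were not called. Collagens and matrix genes were depleted in 29 of 35 cases and enriched in 3 (median -2.20). Col1a1 encodes a chain of type I collagen and was at -5.39, -5.71, -5.30 and -5.86. The 3 enriched members were Col18a1 (3.76), Lama1 (3.48) and Lum (2.33).

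Cell division genes were depleted nearly throughout. Of 37 mitosis genes, 35 were depleted, with a median of -3.24. Of 38 replication genes, 33 were depleted and 1 enriched, with a median of -2.79. These counts include members that passed the filter by their reference signal alone. Among members detected in both channels on 4 arrays, 22 of 22 mitosis genes were depleted. For replication genes it was 29 of 33, with 1 enriched. Mki67, the proliferation marker Ki-67, was at -5.03, -4.80, -5.51 and -5.58 (mean -5.23 ± 0.13). Top2a, which untangles sister chromatids, was at -3.59, -3.67, -4.30 and -4.32 (mean -3.97 ± 0.14), and Rrm2, which supplies deoxynucleotides, at -4.46, -4.52, -4.19 and -4.43 (mean -4.40 ± 0.08). All 4 mice were at or below -3.59 for these 3 genes. Cdk1, the kinase that drives entry into mitosis, was at -2.45, -2.60, -2.70 and -2.65 (mean -2.60 ± 0.07) and was not well above background in liver on any array; its other probe was at 0.09. Pcna, the clamp of DNA polymerase, was at -2.90, and Uhrf1, which carries DNA methylation through replication, at -5.33. Over the 18 alternatives of processing Uhrf1 ranged from -6.75 to -3.19 and stayed depleted. Mcm10, a replication factor, was the exception at 2.06, 2.03, 2.53 and 2.32 (mean 2.23 ± 0.10).

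Promoters of mitosis genes are known for CCAAT boxes and for the cell cycle homology region (CHR), an element searched here as TTTGAA. The 150 bases before the start of Cdk1 (chr10:69352913-69353062, minus strand), Mki67 (chr7:135716380-135716529, minus strand) and Top2a (chr11:99024190-99024339, minus strand) follow in the direction of each gene, with CCAAT and CHR letters of either strand in capitals, and were picked because they hold both.
Cdk1: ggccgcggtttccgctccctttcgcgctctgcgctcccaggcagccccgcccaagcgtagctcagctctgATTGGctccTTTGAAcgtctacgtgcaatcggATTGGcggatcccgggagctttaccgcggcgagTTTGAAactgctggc
Mki67: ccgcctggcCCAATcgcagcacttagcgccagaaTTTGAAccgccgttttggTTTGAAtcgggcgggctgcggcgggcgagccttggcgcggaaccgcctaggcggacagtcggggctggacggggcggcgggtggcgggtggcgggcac
Top2a: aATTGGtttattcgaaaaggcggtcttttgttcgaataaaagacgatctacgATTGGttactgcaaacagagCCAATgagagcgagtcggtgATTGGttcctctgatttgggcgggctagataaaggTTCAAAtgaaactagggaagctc

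Of the 32 promoters of tested mitosis genes, 78.1% held CCAAT and 75% held TTTGAA on either strand within 300 bases (250 before the start and 50 after). The shares were 37.4% and 17.9% over all 32851 promoters, 37.5% and 12.9% over those of tested genes, and 38.5% and 13.8% over those of depleted genes. TTTCGCGC, a form of the E2F motif, was in 1 of the 32 mitosis promoters (3.12%), 0.323% of all and 0.565% of tested ones. TTTGGCGC was likewise in 1 of the 32 (3.12%), 0.514% of all and 0.792% of tested ones. Shares that rest on 1 promoter cannot be compared with the others. A match of letters is a description and not a binding site.

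Fetal, body axis and pluripotency genes differed between lists. Of 21 fetal, imprinted and oncofetal genes, 11 were depleted and 2 enriched (median -1.44). Hmga2, a chromatin protein of embryonic cells, was at -4.88, -4.93, -5.49 and -5.20 (mean -5.13 ± 0.11). Afp, the albumin-like protein of fetal liver, was at -1.73, -1.79, -1.80 and -1.70 (mean -1.76 ± 0.07), and H19 at -3.28, -3.41, -3.30 and -3.44 (mean -3.36 ± 0.07). The 4 mice lay close together for Afp and H19. Meg3 was enriched at 2.44 and Cdkn1c, a growth-restraining imprinted gene, at 1.70. Hox genes, which set position along the body axis, were depleted in 15 of 33 cases (median -0.99). Only 6 of the 33 were detected in both channels on 4 arrays, and 3 of these 6 were depleted. Members that passed the filter by their reference signal alone could hardly come out enriched. Hoxb7 was at -2.07 and Hoxc9, with liver signal above background on 1 of 4 arrays, at -3.73. Of 14 pluripotency and germ cell genes, 1 was enriched, 1 depleted and 12 not called (median -0.06). Only 7 of the 14 were detected in both channels on 4 arrays, and 11 of the 25 on the arrays were too dim to test. Neural genes were depleted in 4 of 19 cases and enriched in 4. Ncam1 was at -3.35 (-4.17 to -1.97 over the 18 alternatives of processing). The synaptic vesicle gene Syt1 was at 4.45, 4.16, 4.74 and 4.32 (mean 4.42 ± 0.10). Muscle genes were depleted in 7 of 20 cases, and in 3 of the 6 detected in both channels on 4 arrays. Among 18 genes of pancreas, kidney, mammary gland, adipose and steroid-making cells, 6 were enriched. The pancreatic amylase gene Amy2a5 was one of these at 5.60, with its other probe at 1.07, and the chymotrypsinogen gene Ctrb1 another at 1.45. Pnlip and Cpa1, lipase and carboxypeptidase of the pancreas, were not well above background in liver on any array, nor in the reference on more than 1, so they give no ratio.

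Widely expressed machinery gave small values. Ribosomal protein genes were depleted in 38 of 49 cases (median -1.24), from -1.89 for Rpl12 to 0.79 for Rps27l. Their median ran from -2.06 on the spike-in scale to -0.46 with the scanner's processed signals and was -0.73 in the authors' ratios. Rplp0 (-1.26) lost its call in 4 of the 18 alternatives and Rps6 (-1.06) in 6, with both below 0 in all 18. Subunits of the mitochondrial respiratory chain were enriched in 33 of 49 cases (median 1.14), with Sdhb, of succinate dehydrogenase, highest at 2.18, 2.05, 2.57 and 2.30 (mean 2.27 ± 0.09). Their median was 0.32 on the spike-in scale, on which all features were at -0.89. Of 31 proteasome subunits 0 reached 2-fold. In limma's test 15 were higher and 4 lower at an unadjusted p below 0.05, and 14 and 4 after adjustment. With no fold limit, 19922 of all 25621 features had an adjusted p below 0.05 in that test, so passing it was common. Common normalization genes did not share 1 level: Actb was at -1.32, -0.77, -0.58 and -1.34 (mean -1.003 ± 0.13), Gapdh at -0.72 and Sdha at 1.75. With the scanner's processed signals Actb was at 0.07 and no longer called, and Gapdh ranged from -1.54 to 0.38 over the alternatives.

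Xist and the Y-linked genes Ddx3y and Eif2s3y followed the labelled sex of the mice. Xist, the RNA that silences the inactive X chromosome, was at 1.40, 1.25, 1.16 and 0.95 (mean 1.19 ± 0.09), and its call was lost after median centring, with no normalization, with limma's treat against 2-fold and on the spike-in scale (0.37 to 1.34 over all alternatives). The Y-linked genes Ddx3y and Eif2s3y were above background in the reference on 4 of 4 arrays and not well above background in liver on any, so liver was at least 5.10-fold and 3.84-fold lower. For Ddx3y and Eif2s3y, signal was thus seen in the reference channel only. This did not hold for the whole list of Y-linked genes and Xist. Of its 7 measured members, 1 was enriched, 2 were depleted and 4 were not called. Both channels detected 4 of the 7 on 4 arrays, with 1 of these enriched and 0 depleted.

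Some features were seen in 1 channel only, where a ratio has only a bound. A bound sets the mean of the bright channel against the lowest signal well above background in the dim one, or the dim probe's own signal where higher; with no dye swap it is open to dye bias. By the probe in use, 233 features were above background in liver on 4 arrays and in the reference on none, and 2948 the other way round. For 222 and 2877 of them no probe of the gene was above background in the dim channel, and these have a bound. The largest bounds for liver were Ugt2b1 (at least 119-fold), Sult3a1 (115-fold), Acot12 (109-fold) and Dct (101-fold). Ugt2b1 and Sult3a1 encode conjugating enzymes and Acot12 an acetyl-CoA hydrolase, while Dct is known as a melanin enzyme of pigment cells. The other probe of Dct was at 5.72. Tyr and Mlana, further genes of pigment cells, were at 0.42 and -0.25 and were not called. Ttpa, which loads vitamin E into lipoproteins, was at least 77.6-fold higher in liver, and Cyp7a1, the rate-limiting enzyme of bile acid synthesis, at least 56.3-fold. Baat, which joins bile acids to amino acids, was at least 45.3-fold higher. On the reference side the largest bounds included Hoxc6 (at least 28.0-fold lower in liver), Clec4d (23.4-fold), the matrix gene Thbs1 (21.8-fold) and the immediate-early gene Fos (21.7-fold).

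Mice agreed to different degrees. Over the 17417 features detected in both channels on 4 arrays, of which 18.4% were enriched and 19% depleted, the median SD of the ratio across 4 mice was 0.15. It was 0.50 over the 410 of them enriched at least 32-fold. In those 410 the spread lay in the reference channel, with a median SD of 0.42 against 0.16 in the liver channel, and the reference SD was the larger in 87.6% of them against 31% of all features. Mouse 3 had the highest ratio in 97.6% of the 410. For Alb the normalized log2 intensity of the liver channel was 18.96, 18.71, 18.41 and 18.90, and that of the reference channel 13.12, 13.06, 10.92 and 12.62. So the reference signal of Alb on the array of mouse 3 was the lowest, and the liver signal there was not the highest.

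**Figure D3:**
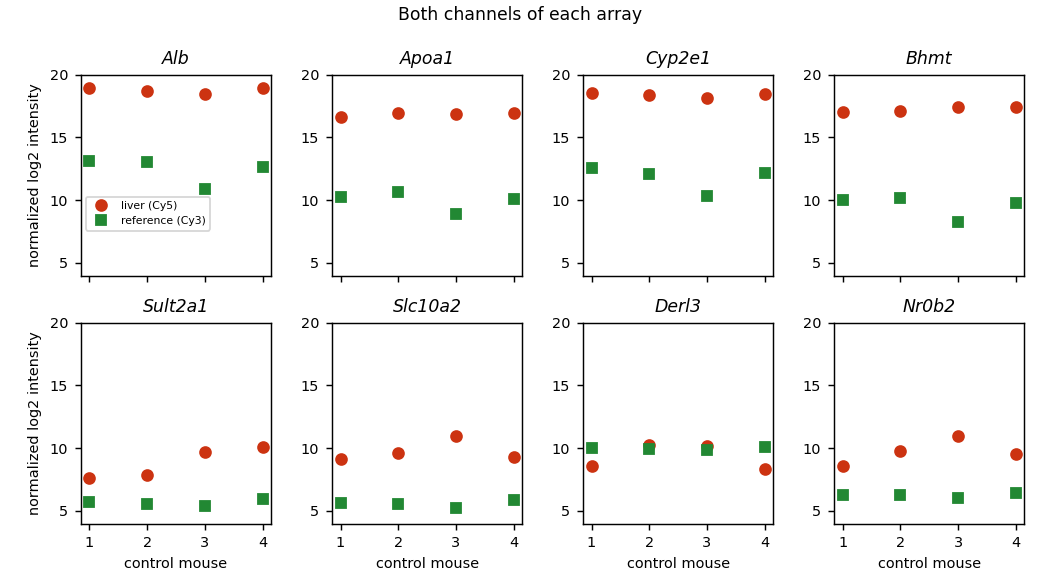
Normalized log2 intensity (vertical axis) of the liver channel (red circles) and the reference channel (green squares) on the arrays of control mice 1 to 4 for 8 genes chosen after their values were seen. In the upper row the reference drops on the array of mouse 3, to 10.92 for Alb and 8.26 for Bhmt, while in the lower row the liver channel moves, from 7.59 to 10.12 for Sult2a1.

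The array of mouse 3 lay on a slide with 2 arrays of furan-treated mice. Over the same 410 features the median ratio was 6.83 to 7.06 on the 3 arrays of that slide and 5.91 to 6.45 on the 11 arrays of the other slides, and the ranges did not overlap. Each control mouse lay on a slide of its own, so mouse and slide cannot be told apart within the controls alone. With all 14 arrays in the fit and slide as a random block (limma's duplicateCorrelation), 3617 features were enriched and 4366 depleted in control liver. Without mouse 3, 3493 features were enriched and 4382 depleted, and the 32-fold class is the one where its array weighed most.

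**Figure D4:**
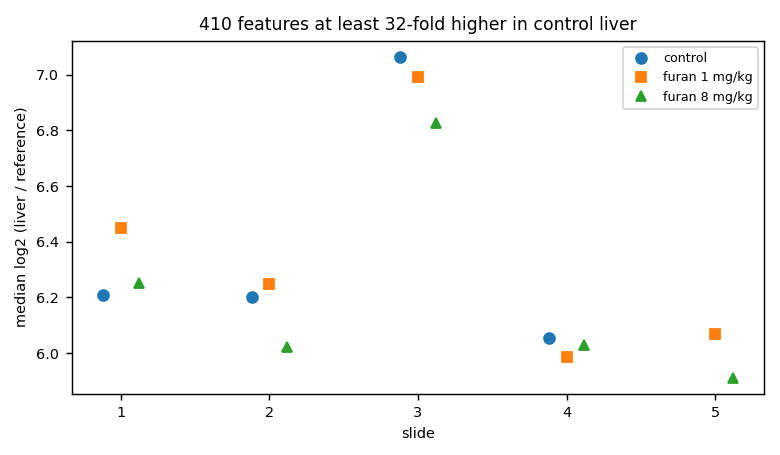
Median log2 ratio of liver over reference over 410 features enriched at least 32-fold in control liver (vertical axis) on each of the 14 arrays, by slide (horizontal axis) and dose group (symbols). The 3 arrays of slide 3 stand at 6.83 to 7.06, whatever their group, and the other 11 at 5.91 to 6.45.

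For other genes the spread lay in the liver channel. Among the 10 genes with the largest SD of those above background in liver on 4 arrays were Sult2a1, Slc10a2, Derl3, Nr0b2, Apol10a, Ntrk2, Acmsd, Bhmt and Sult2a7. In the reference, Sult2a1, Slc10a2, Acmsd and Sult2a7 were not well above background on any array, and Apol10a was on 1. Sult2a1, a sulfotransferase of steroids and bile acids, was at 1.89, 2.32, 4.29 and 4.19, with liver intensities of 7.59, 7.87, 9.67 and 10.12 and reference intensities between 5.38 and 5.93. Mice 3 and 4 were thus above mice 1 and 2. Derl3, of protein disposal from the endoplasmic reticulum, was at -1.40, 0.32, 0.26 and -1.80; mice 2 and 3 were above 0 and mice 1 and 4 below it, with reference intensities of 9.88 to 10.12. Apol10a showed the same order at 0.62, 2.53, 2.32 and 0.57. Slc10a2, a bile acid transporter, was at 3.49, 4.07, 5.80 and 3.39, highest in mouse 3. Ntrk2, a neurotrophin receptor, was at 2.42, 1.41, 3.72 and 3.35, lowest in mouse 2. Bhmt, which remethylates homocysteine, belongs to the other kind: its liver intensities were 17.01 to 17.45 and its reference intensities 8.26 to 10.15.

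The other groups were read on the same scale. For Alb the lowest, median and highest ratios of the 5 arrays at 1 mg/kg furan were 5.63, 5.87 and 7.62, and at 8 mg/kg 5.61, 5.97 and 7.15, ranges that overlapped with that of the controls. For Mki67 they were -5.20, -5.03 and -4.99 at 1 mg/kg and -5.14, -4.77 and -3.49 at 8 mg/kg. The median of plasma carriers was 7.14 in controls, 7.16 at 1 mg/kg and 6.98 at 8 mg/kg furan. That of P450 genes was 6.56, 6.56 and 6.42 in the same order, that of mitosis genes -3.24, -3.27 and -2.83, and that of fetal genes -1.44, -1.41 and -0.83. These are medians over genes of each group's mean ratio; the differences between groups were not tested here.

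The promoters of enriched genes differed in base composition from those of other tested genes. The median ratio of observed to expected CpG was 0.38 over all promoters, 0.70 over 15403 promoters of tested genes and 0.71 for depleted genes, against 0.57 for enriched genes and 0.23 for genes enriched at least 32-fold. HNF4 letters (CAAAGTCCA) were in 0.475% of all promoters and 0.48% of those of tested genes. They were in 1.03% of enriched, 3.85% (15 of 390) of those enriched at least 32-fold and 0.226% (7 of 3095) of depleted ones. Of the 64 promoters of plasma protein and coagulation genes, 0 held them. For TTGCNNAA, a form of the C/EBP motif, the shares were 10.8% of all promoters and 9.23% of tested ones, and 11.2%, 20.8% and 8.59% of those 3 sets. For TATAAA they were 13.6% of all and 9.08% of tested ones, and 10.6%, 19.7% and 8.82%. Among those 64 promoters the shares of these 2 motifs were 32.8% and 20.3%. Promoters were counted per start, 390 for the 322 genes enriched at least 32-fold. Some belong to paralogs, such as Cyp3a11 and Cyp3a16, so they are not independent. These shares are descriptions. Promoters low in CpG differ in other letters too, and the part of CpG in the shares was not tested.

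**Figure D5:**
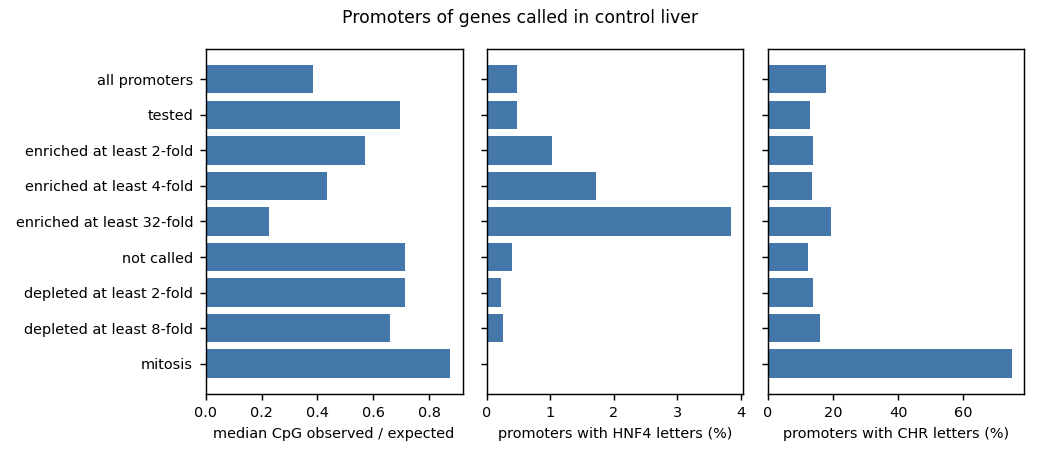
Median ratio of observed to expected CpG (left), percent of promoters with the HNF4 letters CAAAGTCCA (middle) and percent with the CHR letters TTTGAA (right) for promoters grouped by the call of their gene, with all promoters, all tested genes and the mitosis list. The HNF4 share goes from 0.475% in all promoters to 3.85% in genes enriched at least 32-fold, and the CHR bar of the mitosis list stands at 75%.

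Enriched genes often lay beside each other in the genome, in the order of the RefSeq table. A neighbouring tested gene was enriched for 31.6% of all 15375 tested genes with a symbol, for 44.6% of enriched genes and for 66.4% of genes enriched at least 32-fold. The longest run of adjacent enriched genes was 10 on chromosome 15, from Cyp2d22 to Cyp2d26, followed by 9 on chromosome 19 from Cyp2c29 to Cyp2c70. Runs of 8 held Mup genes, Cyp2j genes and Cyp4a genes on chromosome 4, Ugt2b genes on chromosome 5 and Cyp2a and Cyp2b genes on chromosome 7. In these runs most members were paralogs, whose probes can bind each other's transcripts, so they are not independent. Not all runs were of this kind: the 7 genes from Ndufb10 to Igfals on chromosome 17 are of different families. Of 540 tested genes on the X chromosome 10.4% were enriched and 25.4% depleted, against 17.9% and 20.5% of all tested genes with a symbol. On chromosome 15, 32.3% of 628 genes were depleted.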

How the data were processed

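Liver RNA (Cy5) and reference RNA (Cy3) were hybridised together on Agilent SurePrint mouse arrays. The members and gene lists were chosen with earlier results of these data known. Per the file headers, the deposited scanner files held spot intensity values read with Feature Extraction 10.7.3.1. The authors also deposited a table of linear ratio values, whose log2 values correlated at 0.994 to 0.995 with those computed here on the control arrays; how it was normalized is not stated there. Median intensities were corrected with normexp (offset 50) and loess within each array (limma 3.58.1, R 4.3.3), control and flagged spots had no weight, and spots were averaged per probe. By RefSeq accession 26413 probes were named and by a symbol in the file 8, while 29260 stayed unnamed; the probe with the highest mean of both channels stood for a gene. Of 6310 features with several probes, 14 were called and had probe means of at least 2-fold in opposite directions. Only the probe in use was tested, and probes that differed without this, such as those of F10 and Slc10a1, are not in this count. Mean ratios were tested against 0 with lmFit and eBayes on 4 arrays, which limit the precision. Log2 intensity per channel came from loess and Aquantile scaling.

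The text names the 15 highest and 15 lowest called genes in both channels, the 10 largest bounds on each side, the first 3 and the 4 most extreme members of each list, and the 10 genes of largest SD, all by a written rule, together with members picked after their values were seen. These picks are the isoform pairs, single members outside the rule, the genes of the channel plot, the promoters shown, the neighbour and chromosome counts, the 32-fold class and the spike-in scale, on which the scanner's own fit of spike-in RNAs put a ratio of 1 at 1.59 to 2.02-fold higher in Cy5. Some genes that the rule names, and a motif that was searched, are not reported here. Alternatives were tried for background, normalization, filters, probes, test and replicates. Promoter sequences (250 bases before and 50 after each start) are those of RefSeq, assembly GRCm38.p6; probe positions of the files refer to an older build and were not used.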

Additional observations from a re-analysis of the deposited data

Results flagged for a closer look

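In 15 of the 207 named genes and 5 of the 30 gene lists, 1 of the 4 control mice stood apart from the others, by a gap that took up more of the whole range than Dixon's 95% critical value allows. Chance flags about 1 group in 20. Of the 15 genes, 13 were set apart by mouse 3, whose array lay on the slide with high ratios. Mouse 3 was the highest for Aadac (10.44), Serpina3k (10.98), Apoh (10.67), Fgg (10.72), Cyp2c54 (9.98), Lrat (3.27), Bhmt2 (8.67), Cyp2c29 (9.63), Gpr182 (5.94), Colec11 (6.26) and B2m (2.19). It was the lowest for Epcam (-2.71) and Hoxc8 (-1.34). Mouse 2 was the lowest for Cpt1a (3.08) and mouse 4 for Cela1 (-0.79). Among list medians, mouse 3 was the highest for coagulation and complement (7.23), cytochrome P450 genes (7.49) and sinusoidal endothelial markers (2.87), and the lowest for lymphocyte genes (-2.28). Mouse 1 was the highest for pluripotency and germ cell genes (-0.00922). The values of mouse 3 all come from 1 array, so these are not independent cases.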

How the results depend on the processing

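Named genes kept their direction and their side of the threshold in most of the 18 alternatives (3589 of the gene and setting pairs, against 38 with a call gained, 37 with a call lost and 2 turned). Not all alternatives had room to change a call. With all 14 arrays and a mean per group the control means stay the same. There, and with no filter on dim probes, the calls were the same 3653 and 4384. The count of enriched features, 3653, was 2360 after median centring, 2317 with no normalization and 2019 on the spike-in scale, which was chosen after seeing the data. Depleted features, 4384, were 8030, 8209 and 11128 under these, and 7964 with the scanner's processed signals. Over features in both channels, 3203 enriched became 1941, 1905 and 1735, and 3306 depleted became 6523, 6662 and 7296. Enriched features were 22.7%, 22% and 15.4% of the calls there, and 39.3% with processed signals, against 45.5%. Leaving out 1 mouse gave 3493 to 3765 enriched and 4382 to 4448 depleted features. With genes past 4-fold in place of 2-fold, the promoter shares moved to 1.72% (HNF4) and 13% (TATA) for enriched genes, and to 9.88% (TATA) for depleted ones.

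List medians changed sign for proteasome subunits (-0.47 after median centring, -0.50 with no normalization, -0.0755 in the authors' ratios, -0.65 on the spike-in scale), for widely expressed genes (0.24 with processed signals), for genes of other secretory tissues (-0.45 on the spike-in scale) and for Y-linked genes with Xist (0.0123 with a normexp offset of 16, 0.21 in both channels, and -0.139 to 0.0592 on leaving out 1 mouse, above 0 without mouse 1). Over members in both channels they also turned for cholangiocyte (0.49), pluripotency (0.0398) and neural genes (0.21). Cdk1 turned to 0.0918 with the probe brightest in liver, and Actb to 0.0652 with processed signals; in the other cases the cause was not tested. No paired analysis was possible because the comparison lies within 1 group, and each array already pairs a liver with the reference.

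No dye swap and a single reference RNA limit these ratios: a dye effect of a probe cannot be told apart from a difference in RNA. Ratios of features near background in 1 channel are compressed by the offset of 50, and features seen in 1 channel have only a bound. The 4 control arrays alone cannot separate mouse from slide.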
